A study of Eleusine coracana with 4 samples.

Results

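The nuclear genes of the photosynthetic light reactions were followed in leaves of finger millet (Eleusine coracana), a C4 cereal, through 40 of the 55986 features in the deposited tables. The members are a list of loci chosen for their gene class. It covers nuclear genes of light-harvesting proteins, photosystem I and II subunits, plastocyanin, ferredoxin and its reductase, the Rieske protein and the plastid ATP synthase. All 40 were found by identifier. The tables hold identifiers of the LOC_Os form, used for rice loci, and pair none with a gene name. The members are therefore described as 1 class, and no role is assigned to a single locus. A level therefore also reflects how closely the finger millet transcript resembles the rice locus.

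Light-harvesting proteins bind chlorophyll and carotenoids in the thylakoid membrane and pass excitation energy to the reaction centres of the photosystems. Electrons drawn from water by photosystem II reach photosystem I through plastoquinone, the cytochrome complex that holds the Rieske protein, and plastocyanin. Ferredoxin and its reductase pass them on to NADP, and the proton gradient built up on the way drives the plastid ATP synthase. The core subunits of these complexes are encoded in the plastid, while the antenna proteins, many peripheral subunits and the soluble carriers are encoded in the nucleus, where their transcripts are among the more abundant messenger RNAs of a green leaf.

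Each of 4 groups had 1 library of RNA from young, fully expanded leaves. CO12 control and Trichy 1 control came from well-watered pots of these genotypes, and CO12 salt and Trichy 1 salt from pots salted with NaCl at 300 mM when the seedlings had 4 leaves, 20 days after sowing. The labels give neither the time from salt to harvest nor the number of plants per library. The libraries were depleted of ribosomal RNA and held 1831353 (CO12 salt) to 6272817 (CO12 control) total gene reads, and both salt libraries were shallower than both controls. The 20 most abundant features, none of them a member, took 95.5% to 96.1% of the reads of a library, so that 75465 to 246448 reads were left for everything else. With 1 library per group no difference has a replicate check. The intervals given cover counting error only, no p-value is given, and reads copied by PCR are not independent molecules.

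The summed reads of the 40 members took a smaller share of both salt libraries than of both controls. In CO12 the members had 13516 reads without salt and 2602 with it, and in Trichy 1 they had 7999 and 3421. The CO12 share was 0.215% of all reads in control (Wilson 95% interval 0.212% to 0.219%) and 0.142% under salt (0.137% to 0.148%). The Trichy 1 share was 0.239% in control (0.234% to 0.244%) and 0.142% under salt (0.137% to 0.147%). The salt libraries of the genotypes thus had the same share to 3 digits, and neither salt interval overlapped a control interval. A share also depends on all other reads of the library, so it gives no absolute amount of these RNAs. Whether fewer photosynthetic cells or less of these RNAs per cell gave a lower share cannot be told apart in whole-leaf RNA.

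Scaled to library totals, the summed level under salt was 0.659 times that of the control in CO12 (exact conditional 95% interval 0.632 to 0.688). In Trichy 1 it was 0.595 times the control (0.571 to 0.619). The share of the few very abundant features also differed between libraries, so the members were also set against the reads outside the 20 most abundant features. On that base CO12 went from 5.48% without salt to 3.45% with it, and Trichy 1 from 5.28% to 3.43%. The salt libraries were again the lower ones in both genotypes. The salt ratio was below 1 in both genotypes under each of the 4 other scalings, with unique reads, and without the 1 or the 3 most abundant members.

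**Figure D1:**
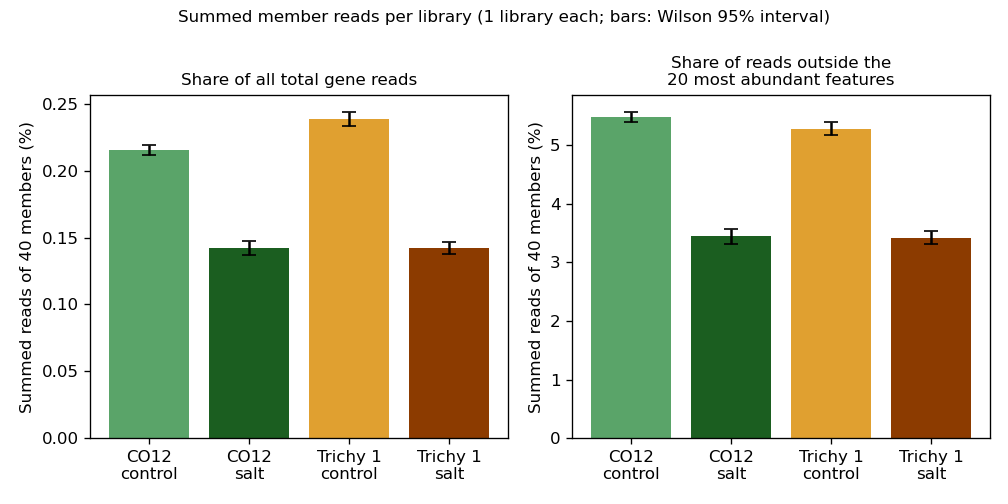
Summed reads of the 40 members as a percentage of all total gene reads (left) and of the reads outside the 20 most abundant features (right), 1 bar per library with its Wilson 95% interval. On the left the bars stand at 0.215%, 0.142%, 0.239% and 0.142%, and on both bases the salt bars are lower than the control bars.

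Almost every member with enough reads had a lower level in the salt library, by a moderate amount. In CO12, 39 members had at least 20 reads in control or salt, and 38 of them were lower under salt. The background share was 56.4% of the 1025 features with as many reads. In Trichy 1, 37 members passed and all 37 were lower, against 60.9% of 727 features. Of these, 11 members in CO12 and 6 in Trichy 1 passed through 1 library only, in each case the deeper control. Among deeper features, those reaching 100 reads in 1 of the libraries, 30 of 30 members were lower in CO12 (60.4% of 321 features) and 26 of 26 in Trichy 1 (69.4% of 242). Most of these members in CO12, and many in Trichy 1, reached 100 reads in the control only. Such a floor can favour lower salt values.

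The members at least 2-fold lower were few, 7 of 39 in CO12 and 4 of 37 in Trichy 1. With library totals these counts were not above the background of 19.1% and 17.2% of features. With median-of-ratios factors they were 28 of 39 against 36.8% and 14 of 37 against 23.8%, so whether the members stand out at 2-fold depends on the scaling. No member was 2-fold higher in either genotype, where the background was 10.8% and 11.7%. The counting interval lay wholly below equality for 27 of 39 members in CO12 and 30 of 37 in Trichy 1, against 21.8% and 33% of features. It lay wholly above equality for no member, against 19.1% and 19.8%. Deep features have narrow intervals. With at least 100 reads, again often reached in the control only, the lower shares were 25 of 30 members against 42.7% in CO12. In Trichy 1 they were 25 of 26 members against 56.2%.

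The members' salt responses also spanned a narrower range than those of all features. Their median log2 ratio was -0.61 in CO12, with quartiles of -0.85 and -0.44, and -0.76 in Trichy 1, with quartiles of -0.88 and -0.64. All features with at least 20 reads had medians of -0.15 and -0.25, and quartiles of -0.79 and 0.49 in CO12 and of -0.79 and 0.38 in Trichy 1. Relative to the median of all features, the median of the members was lower by 0.45 in CO12 and 0.51 in Trichy 1 on the log2 scale. A change of library scaling shifts both medians alike and leaves these distances as they are, but they depend on the floor. With no floor, the median of all features was -1.20 in CO12, below that of the members (-0.61), and 0.09 in Trichy 1. The -1.20 is the value that 1 read in CO12 control and 0 in CO12 salt give with the prior. It therefore describes features with hardly any reads, and 21288 features had reads in CO12 control against 11675 in CO12 salt. The members were deep features, with a median of 232 reads in CO12 control, and the part of depth in the narrower range was not tested.

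**Figure D2:**
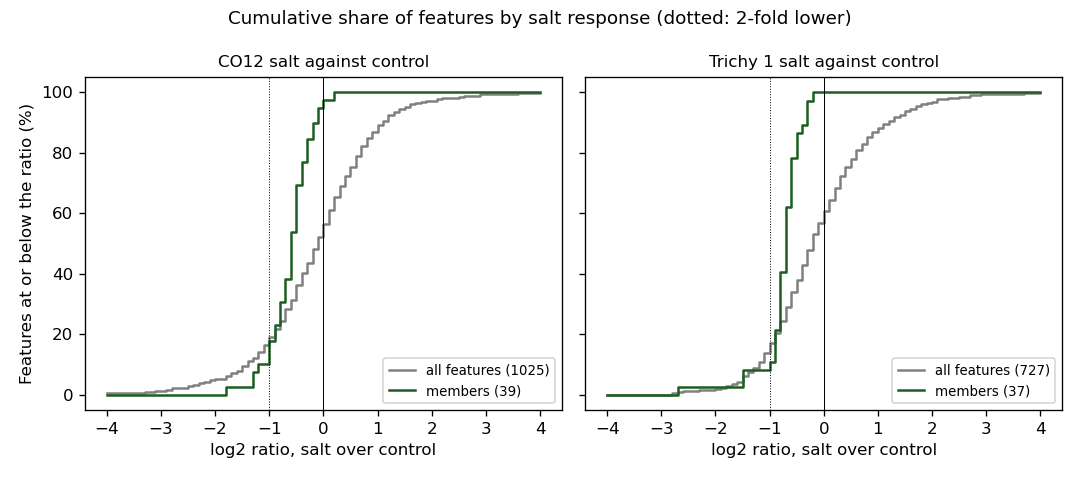
Cumulative percentage of features (y) at or below a log2 ratio of salt over control (x) for members and for all features that reach 20 reads in 1 of the libraries, in CO12 (left, 39 of 1025) and Trichy 1 (right, 37 of 727). The curves meet near the dotted line at 2-fold lower, and the members' curve is at or near 100% by a ratio of 0, where the curve of all features stands at 56.4% and 60.9%.

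The most abundant member was LOC_Os01g41710 (1236 bp in the deposited tables, chromosome 1 by its identifier). Without salt it had 201 RPM (reads scaled to a library total of 1000000) in CO12 and 206 in Trichy 1, and with salt 139 and 122. Both controls lay well above both salt libraries, with a ratio of 0.693 (95% interval 0.604 to 0.794) in CO12 and 0.593 (0.516 to 0.681) in Trichy 1. It also led per length in every library, with 163, 113, 167 and 98.8 RPKM (RPM divided by the length in kilobases) for CO12 without and with salt and Trichy 1 without and with salt, and took 8.59% to 9.80% of all member reads. Of its reads, 44.1% were unique, that is matched to 1 place only. By unique reads it led in no library. It had 536, 118, 309 and 139 of them in the same order, against 925, 183, 568 and 246 for LOC_Os08g33820.

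LOC_Os08g33820 had 148, 99.9, 170.0 and 102 RPM in that same order of libraries, which is used for every member from here on. LOC_Os01g31690 had 144, 95.01, 171 and 109 RPM. In both, nearly all reads were unique and the 2 salt libraries were the 2 lowest. LOC_Os01g52240 had 136, 83.5, 132 and 95.1 RPM, again with both salt libraries below both controls, but it had 0 unique reads in every library. LOC_Os09g17740 had 125, 69.3, 116 and 67.7 RPM, a ratio of 0.556 (0.457 to 0.671) in CO12 and 0.586 (0.485 to 0.705) in Trichy 1. Of its reads 49.2% were unique, so like LOC_Os01g41710 it depended in part on how shared reads were placed.

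LOC_Os08g44680, with only unique reads, had 135, 74.8, 104 and 59.8 RPM. It was lower in Trichy 1 than in CO12 both without salt, 0.769 times (0.676 to 0.872), and with salt, 0.800 times (0.629 to 1.02), where the interval included equality. LOC_Os06g21590 had 98.0, 69.9, 130 and 71.5 RPM, so the controls differed while the salt libraries were within 2 RPM of each other. LOC_Os04g33830 had 76.4, 59.0, 102 and 71.5 RPM. Under salt it was closer to its control than most members, at 0.772 times control in CO12 (0.621 to 0.953) and 0.702 times in Trichy 1 (0.581 to 0.845). Set against the ratio of the other members summed, its ratio did not differ beyond counting error. That value was 1.18 (0.95 to 1.46) in CO12 and 1.19 (0.98 to 1.43) in Trichy 1. LOC_Os07g37240 had 90.4, 55.7, 95.9 and 55.7 RPM. LOC_Os03g39610 had 80.7, 53.0, 91.7 and 54.0 RPM. In these last 2 members the values of the genotypes were close in control and closer still under salt.

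These 10 members were the most abundant by mean RPM, and in every library the 10 largest members held 55.1% to 57.4% of all member reads. The other 29 members with at least 20 reads in some library had mean levels that ran down to a few RPM, and the median of the 40 was 37.0, 21.3, 46.2 and 24.3 RPM. The last member, LOC_Os07g05360, had 1, 0, 3 and 3 reads, too few to compare. Read by rank among all features of a library, the best placed member was between rank 50 and rank 75. The 100 most abundant features held 8 members in each control library and 4 in each salt library.

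Among the middle members, LOC_Os12g23200 had 80.2, 45.9, 90.2 and 53.6 RPM. LOC_Os07g04840 had 76.2, 51.3, 84.2 and 48.2 RPM, and LOC_Os07g37550 had 71.1, 47.5, 69.9 and 38.6 RPM. In these 3 the controls of the genotypes differed by less than counting error and both salt ratios had intervals below equality. LOC_Os02g10390 had 61.5, 44.8, 81.9 and 49.03 RPM, with the higher control in Trichy 1 (1.33 times, 1.14 to 1.56). LOC_Os04g38410 had 46.9, 32.8, 55.0 and 35.3 RPM, and both of its salt intervals lay below equality.

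LOC_Os12g08770 had 29.5, 18.6, 31.4 and 15.8 RPM, and LOC_Os02g01340 had 16.1, 9.28, 20.3 and 12.9 RPM, again with both salt intervals below equality. LOC_Os06g01850 had 26.5, 20.8, 31.7 and 19.9 RPM, and LOC_Os08g10020 had 15.9, 10.9, 17.6 and 9.56 RPM. In these last 2 the salt value was below the control in both genotypes, but the interval excluded equality in Trichy 1 (0.630, 0.438 to 0.894, and 0.542, 0.320 to 0.891) and included it in CO12 (0.784, 0.536 to 1.12, and 0.685, 0.401 to 1.12).

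Per length, LOC_Os01g41710 was first and LOC_Os01g52240 second in 3 libraries, while in CO12 control LOC_Os08g44680 was second with 134 RPKM. Most neighbours in the order of RPKM did not differ beyond counting error. The interval of the ratio of neighbours excluded equality for 8 of 39 neighbouring pairs without salt and 1 with it in CO12, and for 4 and 2 in Trichy 1. The order itself was much alike between libraries, with Spearman's rho of RPKM between 0.958 and 0.980 over the 40 members for the 6 pairs of libraries. All libraries share the lengths and the match of each transcript to its locus, so this is a description only. The members were shorter than most features, with a median of 1525 bp against 2393 bp, and their identifiers name 11 of the rice chromosomes, chromosome 7 with 10 members most often.

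**Figure D3:**
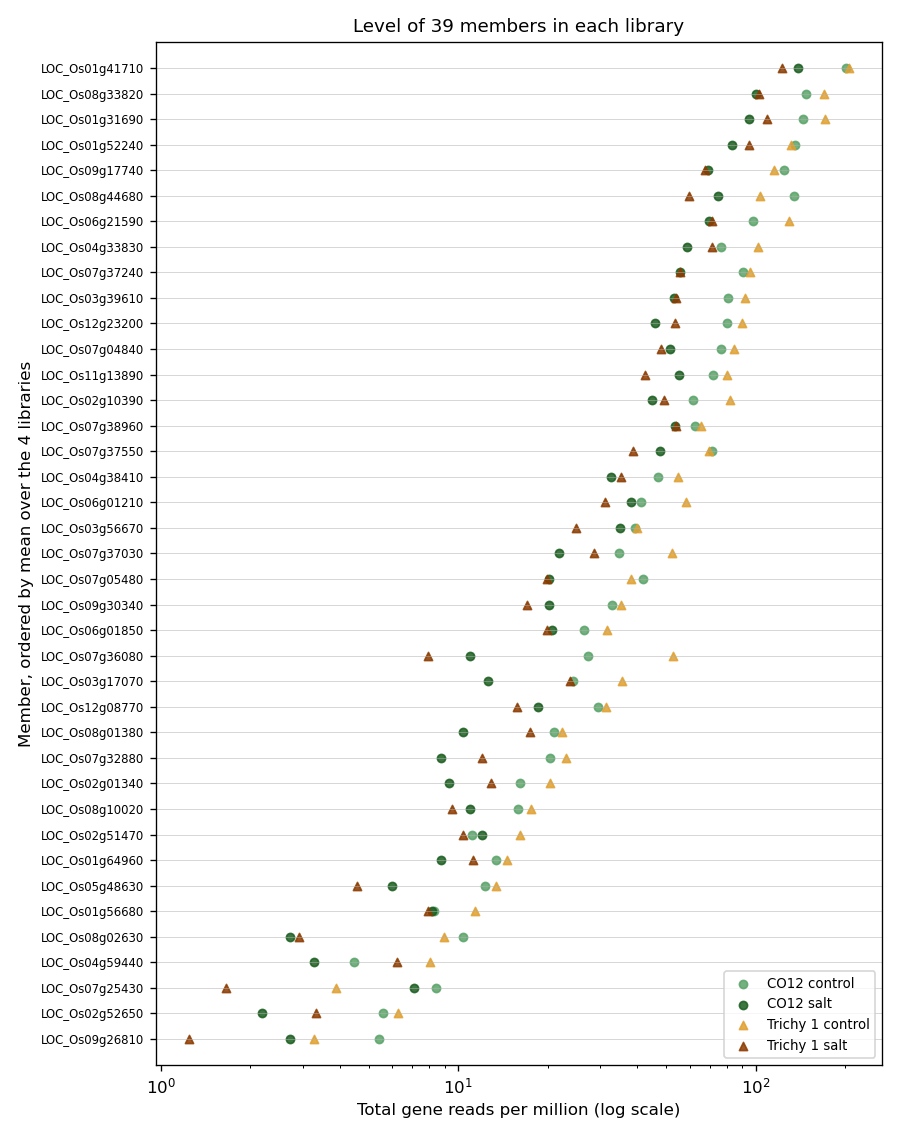
Level of the 39 members with at least 20 reads in some library, in RPM on a log scale (x), 1 row per member ordered by its mean and 1 point per library. For most members the 2 control points lie to the right of the 2 salt points, and LOC_Os07g36080 has the widest gap, from 52.6 in Trichy 1 control to 7.89 in Trichy 1 salt, among members above 10 RPM on average.

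A few members departed from the rest, which was measured by the ratio of a member over the ratio of the other members summed, a value that no library scaling can change. In CO12, the interval of this relative ratio lay above 1 for 3 members and below 1 for 3, against 35.4% and 6.44% of all features set against the same sum. In Trichy 1 it lay above 1 for 2 members and below 1 for 1, against 47% and 6.74%.

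LOC_Os07g38960 stayed closer to its control than the other members summed in both genotypes. It had 62.5, 53.5, 65.4 and 54.0 RPM, so its salt values were lower by much less than those of the members around it. Its relative ratio was 1.31 in CO12 (1.04 to 1.64) and 1.40 in Trichy 1 (1.12 to 1.75). Its own ratio of salt to control, 0.856 in CO12 and 0.826 in Trichy 1, had intervals that included equality (0.679 to 1.07 and 0.659 to 1.03). In CO12, LOC_Os06g01210 and LOC_Os03g56670 had larger relative ratios, 1.42 (1.07 to 1.86) and 1.36 (1.02 to 1.80).

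LOC_Os07g36080 lay farther below its control than the other members summed in both genotypes. It had 27.3, 10.9, 52.6 and 7.89 RPM, from 171, 20, 176 and 19 reads. Trichy 1 control was nearly 2-fold above CO12 control, while both salt libraries were far below their controls, at 0.401 times in CO12 (0.239 to 0.638) and 0.150 times in Trichy 1 (0.0883 to 0.242). Its relative ratio was 0.6045 in CO12 (0.360 to 0.963) and 0.248 in Trichy 1 (0.146 to 0.399). It had 1, 0, 2 and 0 unique reads, so nearly all of its signal rests on reads shared with other places, and with unique reads it was below the floor of 20.

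LOC_Os08g02630 was also low under salt, with 10.4, 2.73, 8.96 and 2.91 RPM from 65, 5, 30 and 7 reads. Its ratio was 0.263 in CO12 (0.0828 to 0.647) and 0.325 in Trichy 1 (0.120 to 0.754), and its reads were 99.1% unique. LOC_Os05g48630 was at least 2-fold lower in both genotypes too, with 12.3, 6.01, 13.4 and 4.57 RPM. These 2 members and LOC_Os07g36080 were the 3 of 37 that passed 2-fold in both genotypes, against 6.56% of features, and the 2 reached 20 reads in the control libraries only. The small salt counts leave wide intervals, and for LOC_Os08g02630 the relative ratio in Trichy 1 was not below 1 beyond counting error.

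The other members at least 2-fold lower did so in 1 genotype. In CO12 they were LOC_Os07g05480 (41.9 and 20.2 RPM), LOC_Os08g01380 (21.0 and 10.4 RPM), LOC_Os07g32880 (20.4 and 8.74 RPM) and LOC_Os02g52650, whose 4 salt reads gave an interval that included equality. In Trichy 1 it was LOC_Os09g30340 (35.2 and 17.0 RPM). Several lay next to the threshold. LOC_Os08g01380 had a log2 ratio of -1.01 in CO12 and LOC_Os12g08770 one of -0.98 in Trichy 1.

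The member that was not lower under salt in CO12 was LOC_Os02g51470. It had 11.2 RPM in control and 12.01 in salt, a ratio of 1.08 (0.635 to 1.76), and in Trichy 1 16.1 and 10.4 RPM, a ratio of 0.644 (0.384 to 1.05). Both intervals included equality, so neither direction is set by these counts. LOC_Os06g01210 had 41.1, 38.2, 58.3 and 31.2 RPM, nearly level in CO12 at 0.929 times control (0.703 to 1.21) and lower in Trichy 1 at 0.535 times (0.404 to 0.702). LOC_Os03g56670 had 39.2, 34.9, 40.03 and 24.9 RPM, at 0.891 times control in CO12 (0.666 to 1.18) and 0.623 times in Trichy 1 (0.451 to 0.850).

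**Figure D4:**
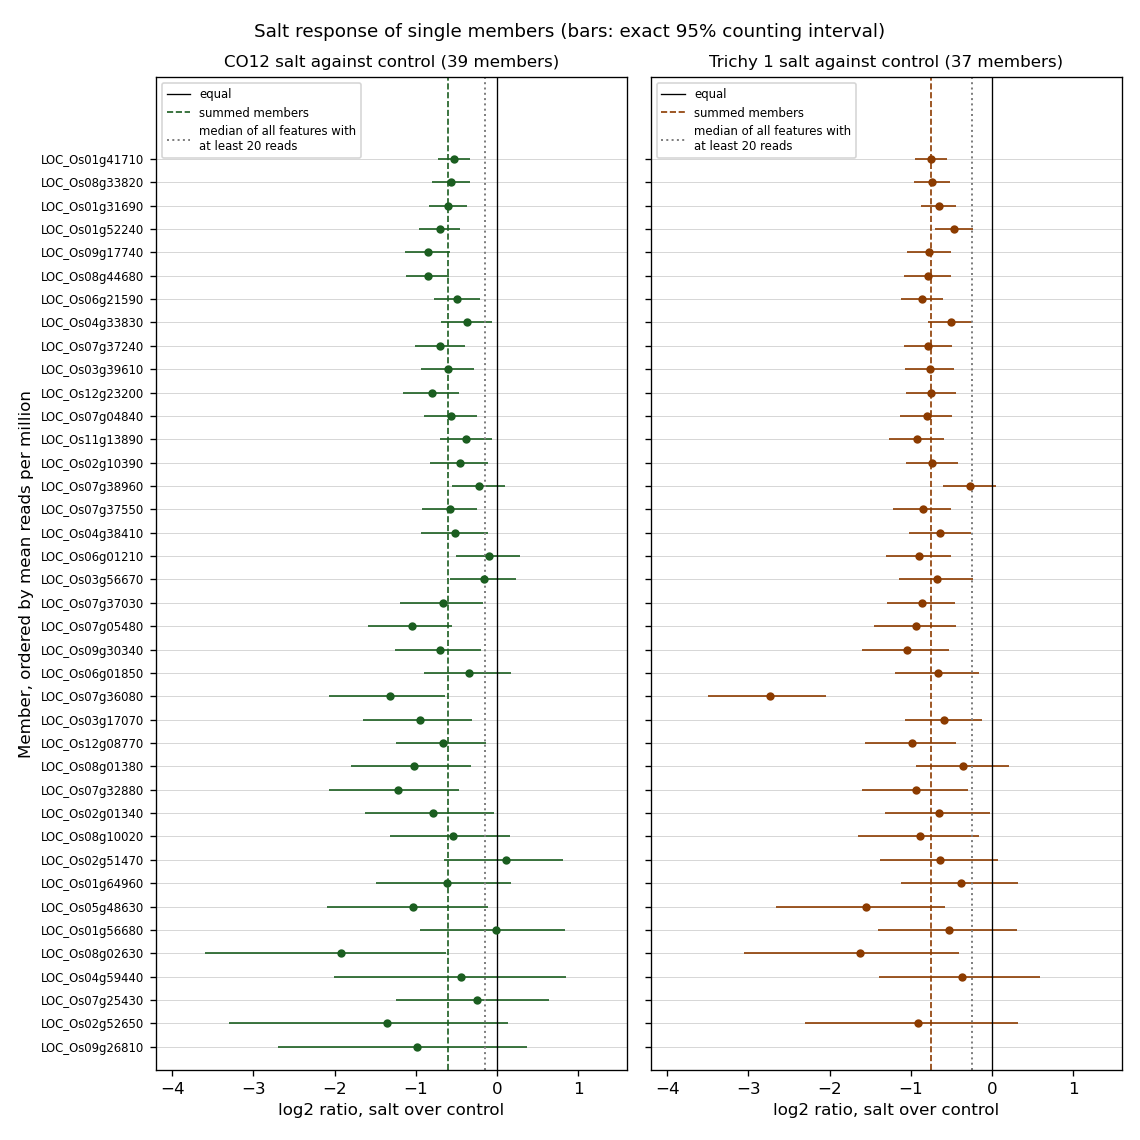
log2 ratio of salt over control (x) for each member with at least 20 reads in either library, in CO12 (left, 39 members) and Trichy 1 (right, 37 members), with exact 95% counting intervals. Most points lie near the dashed line of the summed members (-0.60 and -0.75) and left of the dotted median of all features (-0.15 and -0.25), and LOC_Os07g36080 in Trichy 1 stands farthest to the left.

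With library totals, few single members differed in their response between the genotypes beyond counting error. Of the 37 members with at least 20 reads in both salt comparisons, 36 were lower under salt in both, against 42% of the 686 features with as many reads. Both intervals lay below equality for 26 members, against 17.1% of features. The log2 response, Trichy 1 minus CO12, differed by at least 2-fold for 1 member, LOC_Os07g36080, at -1.40 (95% interval -2.34 to -0.45). The background was 25.9% of 686 features in either direction. With unique reads LOC_Os07g36080 fell below the floor and could not be compared, and none of the 33 members left differed by 2-fold. With library totals the interval excluded 0 for 3 members, all with the lower response in Trichy 1, where 24.9% of features were lower. Besides LOC_Os07g36080 they were LOC_Os06g01210, at -0.79 (-1.33 to -0.25), and LOC_Os11g13890, at -0.54 (-0.99 to -0.09). These calls depended on the scaling. LOC_Os11g13890 was not called under any of the 4 other scalings, and LOC_Os06g01210 was not called with either set of median-of-ratios factors. With median-of-ratios factors 4 members (LOC_Os01g52240, LOC_Os08g01380, LOC_Os08g44680 and LOC_Os09g17740) had intervals above 0. The share of all features above 0 with these factors is not given here. LOC_Os11g13890 had 71.9, 55.1, 80.4 and 42.4 RPM.

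For the summed reads, this difference was -0.15 on the log2 scale (-0.23 to -0.07) with library totals and turned positive with 3 other scalings. Its direction is therefore not settled. These values and those between genotypes rest on the same 4 libraries and are not separate observations.

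Between the genotypes without salt, the summed level was 1.11 times higher in Trichy 1 (1.08 to 1.14) with library totals, but lower than in CO12 with median-of-ratios factors, with such factors over features at the floor, and against the reads outside the 20 most abundant features. The members' median log2 ratio was 0.16 against 0.08 for all 1034 features. With library totals, 10 of 39 members had intervals above equality and 2 below it, against 23.2% and 13.2% of features. Other scalings shift all members alike, and these counts are not given for them here. The 10 included LOC_Os07g37030, with 34.8 RPM in CO12 control and 52.3 in Trichy 1 control, and LOC_Os06g01210, with 41.1 and 58.3.

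The 2 members whose intervals lay below equality with library totals were LOC_Os08g44680 and LOC_Os07g25430, both lower in Trichy 1. LOC_Os07g25430 had 8.45, 7.10, 3.88 and 1.66 RPM, from 53, 13, 13 and 4 reads, and was the only 1 of 39 that was 2-fold apart, at 0.460 times (0.230 to 0.855), where 16.7% of features were. Relative to the other members, 7 had intervals above 1 and 4 below it, against 17.7% of all features in each direction. LOC_Os08g44680, at 0.679 (0.598 to 0.770), was among those below, and LOC_Os04g33830, at 1.21 (1.05 to 1.40), among those above. Transcripts of the genotypes may match a rice locus unequally well, and the part of this in the ratios was not tested.

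Under salt the summed level in Trichy 1 was 1.00 times that in CO12 (0.950 to 1.05) with library totals. With median-of-ratios factors its log2 ratio was 0.14 (0.07 to 0.22), which excludes equality, and with the 3 other scalings the interval included it. None of 32 members was 2-fold apart, against 12.8% of 576 features. The interval lay above equality for 1 member, LOC_Os03g17070, and below it for none, against 17.4% and 16% of features. LOC_Os03g17070 had 24.2, 12.6, 35.5 and 23.7 RPM. It was higher in Trichy 1 in both pairs, 1.47 times without salt (1.14 to 1.88) and 1.89 times with salt (1.14 to 3.21).

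**Figure D5:**
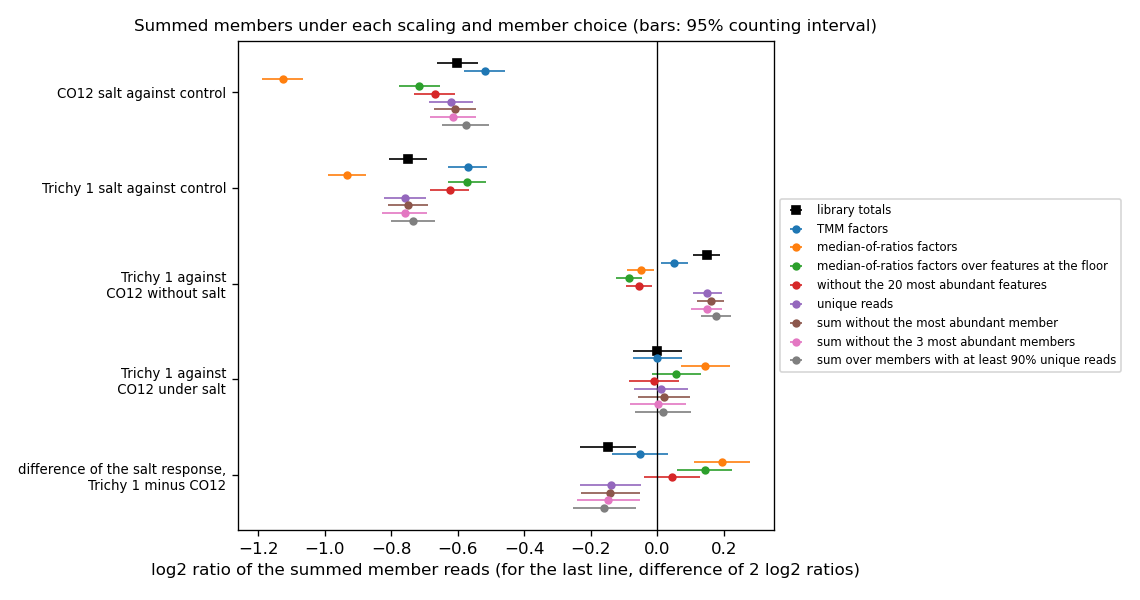
log2 ratio of the summed member reads (x) for the 4 pairs of libraries and for the difference of the salt response (y), with 95% counting intervals, under library totals (black squares) and 8 other settings (coloured points). Both salt ratios are below 0 in every setting, from -1.13 to -0.52 in CO12 and from -0.93 to -0.57 in Trichy 1, while the ratio between controls and the difference of the response lie on both sides of 0.

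Of the 40 loci, 6 had fewer than 90% unique reads. LOC_Os01g52240, LOC_Os09g30340 and LOC_Os01g56680 had none, LOC_Os07g36080 had 0.777%, and LOC_Os01g41710 and LOC_Os09g17740 had 44.1% and 49.2%. LOC_Os01g56680 had 8.29, 8.19, 11.4 and 7.89 RPM. Its CO12 ratio of 0.988 came from 52 and 15 reads, and the wide interval (0.517 to 1.78) sets no direction. Over all members, 81.1% to 83.7% of reads were unique. Summed over the 34 members with at least 90% unique reads, the log2 ratio of salt to control was -0.58 in CO12 and -0.74 in Trichy 1, close to the -0.60 and -0.75 of all 40.

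At the low end, LOC_Os02g52650 had 5.58, 2.18, 6.27 and 3.32 RPM and LOC_Os09g26810 had 5.42, 2.73, 3.29 and 1.25 RPM. LOC_Os04g59440 had 4.46, 3.28, 8.07 and 6.23 RPM, and LOC_Os01g64960 had 13.4, 8.74, 14.6 and 11.2 RPM. In each of these 4 the salt value was below the control of its genotype, and every salt interval included equality, so a difference was not detectable at this depth.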

How the data were processed

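RNA of 4 leaf libraries was sequenced on an Ion Proton instrument after ribosomal RNA depletion and RNase III fragmentation, per the labels' protocols. The authors deposited 1 table per library with whole-number counts of total and unique gene reads per feature, a gene length and RPKM; per the file headers, the counts are not normalized and the RPKM are scaled to length and depth. Not given in the sources used here are the aligner, the genome build, strand use and the rule for placing shared reads. Members and lists were chosen with earlier results of these data known.

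Total gene reads were scaled to library totals (RPM). Pairs of libraries were compared by the log2 ratio with a prior of 0.5 count scaled to depth, over features reaching 20 reads in 1 of the libraries (in both pairs for the difference of the response). Called means at least 2-fold apart, or a 95% counting interval that excludes equality. Intervals of ratios are exact, conditional on the summed count (Clopper-Pearson), and leave out the prior, and shares have Wilson intervals. The difference of responses has 1.96 standard errors from the 4 counts. The calculation was tested on simulated counts with counting error only, with changes larger than 2-fold planted in features deeper than the floor. Changes near 2-fold and features near the floor were not covered.

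Every member with at least 20 reads in a library was named, the 10 most abundant in every library. Other settings were TMM factors (edgeR 4.0.16, over 1066 features with at least 20 reads in a library), median-of-ratios factors, totals without the 20 most abundant features, unique reads, floors of 10, 50 and no reads, a prior of 2.5 counts and sums over fewer members. Python 3.11.15, numpy 2.4.6, scipy 1.17.1 and R 4.3.3 were used. No sequence is shown, since no reference was used here.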

Additional observations from a re-analysis of the deposited data

How the results depend on the processing

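Both salt ratios of the summed members stayed below 0 in all settings tried. In the order CO12 salt, Trichy 1 salt, genotypes in control, and difference of response, the summed log2 ratio was -0.519, -0.57, 0.0514 and -0.051 with TMM factors. Median-of-ratios factors gave -1.13, -0.933, -0.0493 and 0.194, and the same factors from features at the floor gave -0.715, -0.573, -0.085 and 0.142. Leaving out the 20 most abundant features gave -0.67, -0.624, -0.0545 and 0.0452. Under salt the genotype ratio was 0.145 with median-of-ratios factors, which use 4929 features whose median count is 3.5. The last 3 scalings turned the genotype ratio in control and the difference of response, also for the members' median (-0.0379, -0.0737 and -0.0432; 0.186, 0.134 and 0.0372). With median-of-ratios factors the median was -1.13 in CO12 salt, -0.945 in Trichy 1 salt and 0.15 between genotypes under salt. Over features at the floor it was -0.72 in CO12 salt and -0.585 in Trichy 1 salt, where it was -0.583 with TMM factors and -0.637 without the 20 most abundant features.

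The median of all features was -0.15 and -0.25 in the salt comparisons with totals; TMM factors put both at -0.07, and median-of-ratios factors put them at -0.67 and -0.43. Members 2-fold apart in CO12 were 4 under TMM and 28 under median-of-ratios scaling, all lower. In Trichy 1 they were 14 with those factors and 2 at a floor of 50 reads. Between genotypes they were 2 in control with no floor, and under salt 1 with median-of-ratios factors, 1 at a floor of 10 and 3 with no floor. For the difference they were 2 with no floor and 0 with unique reads, where LOC_Os07g36080 fell below the floor. Shares of all features are given here only for library totals and, in the salt comparisons, for median-of-ratios factors. The other counts in this paragraph therefore have no background beside them and cannot be read as particular to the members. LOC_Os08g33820 between controls was -0.0308 with factors from features at the floor and -0.000323 when the 20 most abundant were left out. Of the values of single members, 1032 stayed within their counting interval and 51 others moved beyond it, 13 of them to the other sign from a value whose interval had included equality. Factors over features at the floor and the sum over members with at least 90% unique reads were chosen after seeing the data. No paired analysis was possible because each group has 1 library, and for that reason none could be left out. Depth limits members under 20 salt reads.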

Other observations

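LOC_Os07g36080, the member farthest below its control in Trichy 1 and with nearly no unique reads, was set beside the 131 features that had under 10% unique reads and at least 20 reads in some library. The feature with the nearest counts was LOC_Os06g02980, a locus outside the members (991 bp), with 131 and 16 reads without and with salt in CO12 and 159 and 15 in Trichy 1. After adding 1 read to each count, the counts of the 2 loci lay within 1.30 times of each other in every library. LOC_Os06g02980 had 20.9, 8.74, 47.5 and 6.23 RPM and 4, 0, 4 and 0 unique reads in that order. Whether the 2 loci share reads was not tested, and the pair was chosen after the values were seen. A match this near was not particular to this pair. The same search for LOC_Os09g30340 and LOC_Os01g56680 found features outside the members within 1.23 and 1.26 times. For LOC_Os01g52240 the nearest feature lay within 1.64 times.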
